A study of Mus musculus with 4 samples.

Results

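The 10 genes described here encode proteins that set how long cytokine mRNAs last. They are Zfp36, Zfp36l1 and Zfp36l2, Zc3h12a, Zc3h12c and Zc3h12d, Rc3h1 and Rc3h2, Elavl1 and Btg2. They were chosen by gene symbol from a table of 19504 genes, and all 10 were found, each with a single row. The values come from 4 samples labelled as mouse ILC3s, innate lymphocytes of mucosal tissue that depend on RORgt and secrete IL-22. They were isolated by flow cytometry as Lin-, CD90 high and CD45 low cells. One sample came from circZbtb20-/- mice, which lack a circular RNA made from the Zbtb20 gene, and its paired wild type from circZbtb20+/+ mice. Another came from Nr4a1-/- mice, which lack an orphan nuclear receptor that responds early to stimulation of lymphocytes, and its paired wild type from Nr4a1+/+ mice. The sources used here do not give tissue, age, strain, the making of the alleles, the lineage markers or any pooling of animals.

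Each genotype has 1 array, so no value below has a replicate error, and precision is limited by having 4 arrays. Values are the deposited log2 values, and differences are log2 differences, knockout minus wild type. Fold sizes are those of the deposited scale, whose making is not fully described. A gene is called higher or lower here when it differed at least 2-fold, a log2 difference of 1, and its higher value reached that array's median. The array medians lay between 4.34 and 4.51, and the table ends at a shared highest value of 19.93, which no member reached. The files used here give no detection call, so the size of a difference that involves a value under the array median is not exact. Each knockout was set against its paired wild type and against the other wild type, and the Nr4a1 wild type minus the circZbtb20 wild type serves as background. Genes whose higher value reached the median passed the filter on low values. Their median difference was 0.17 for the circZbtb20 knockout, 0.29 for the Nr4a1 knockout and 0.05 for the wild types. Shares and medians given below for all genes cover only the genes that passed this filter. For calls against both wild types they passed it against each. Since the whole sample was measured at once, fewer cells of a type and less RNA per cell cannot be told apart.

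Nr4a1 itself was at 11.63 in the Nr4a1 knockout array, the lowest of the 4, and at 18.11 in the paired wild type. The value of 11.63 is also the 95th percentile of the knockout array, so the row still had a high signal there. Whether its probes lie in the deleted part of the gene is not given in the labels. The markers of the Nr4a1 knockout array go against its label. Its 17 measured T cell and thymocyte markers were all higher than in either wild type, with a mean of 14.997, against 5.87 in the paired wild type. Its 20 measured ILC3 markers had a mean of 7.498, against 12.28, and 15 of them were lower than in both wild types. Kit, a receptor that ILC3s carry, was at 5.48 there, against 18.36, the widest difference of the list. Tox and Ltb of the same list were higher, by 4.38 and 3.21, and Il22 was at the highest value of the table in both. In the circZbtb20 knockout array the ILC3 markers had a mean of 13.83, against 12.26, and none was under the array median. The list was mixed there. Whichever wild type was the base, 9 of its genes were called as higher and 5 as lower. The median difference from the paired wild type was 0.975. Il17a, at 10.69, Il17f, at 7.71, and Ltb, at 5.09, had the widest differences from it. Other cell types also differed. The 13 pancreatic acinar markers had a mean of 5.20 in the circZbtb20 knockout, against 11.45, and of 4.03 in the Nr4a1 knockout, against 8.90. The 13 intestinal epithelium markers had a mean of 6.46 in the circZbtb20 knockout, against 5.90, and of 3.88 in the Nr4a1 knockout, against 8.23. The 6 ILC2 markers had a mean of 4.23 in the circZbtb20 knockout, against 9.46, and of 5.73 in the Nr4a1 knockout, against 10.10. The 10 NK cell and ILC1 markers had a mean of 6.88 in the circZbtb20 knockout, against 9.43, and of 6.20 in the Nr4a1 knockout, against 9.42. The 11 macrophage and dendritic cell markers had a mean of 4.88 in the circZbtb20 knockout, against 5.61, and of 4.86 in the Nr4a1 knockout, against 6.61. Those of B cells (7 genes) and of red blood cells and platelets (3 genes) averaged 5.04 or less on every array. Each genotype has a single array, so no result can be given without the arrays that stand apart. What part these cell types have in the results was not tested.

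Many cytokine mRNAs carry AU-rich elements or small stem-loops in their untranslated ends, and proteins that read these features bring enzymes that shorten the poly(A) tail or cut the RNA. Tristetraprolin (Zfp36) and its relatives Zfp36l1 and Zfp36l2 bind AU-rich elements and recruit the CCR4-NOT deadenylase. Regnase-1 (Zc3h12a) and the related Zc3h12c and Zc3h12d are stem-loop ribonucleases or members of their family, and the Roquins (Rc3h1, Rc3h2) bind stem-loops and recruit CCR4-NOT. HuR (Elavl1) binds AU-rich elements and generally stabilises the mRNA, and Btg2 links mRNAs to the CCR4-NOT deadenylase subunits. In lymphocytes most of these factors limit the output of inflammatory cytokines, and stimulation can change their own expression.

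**Figure D1:**
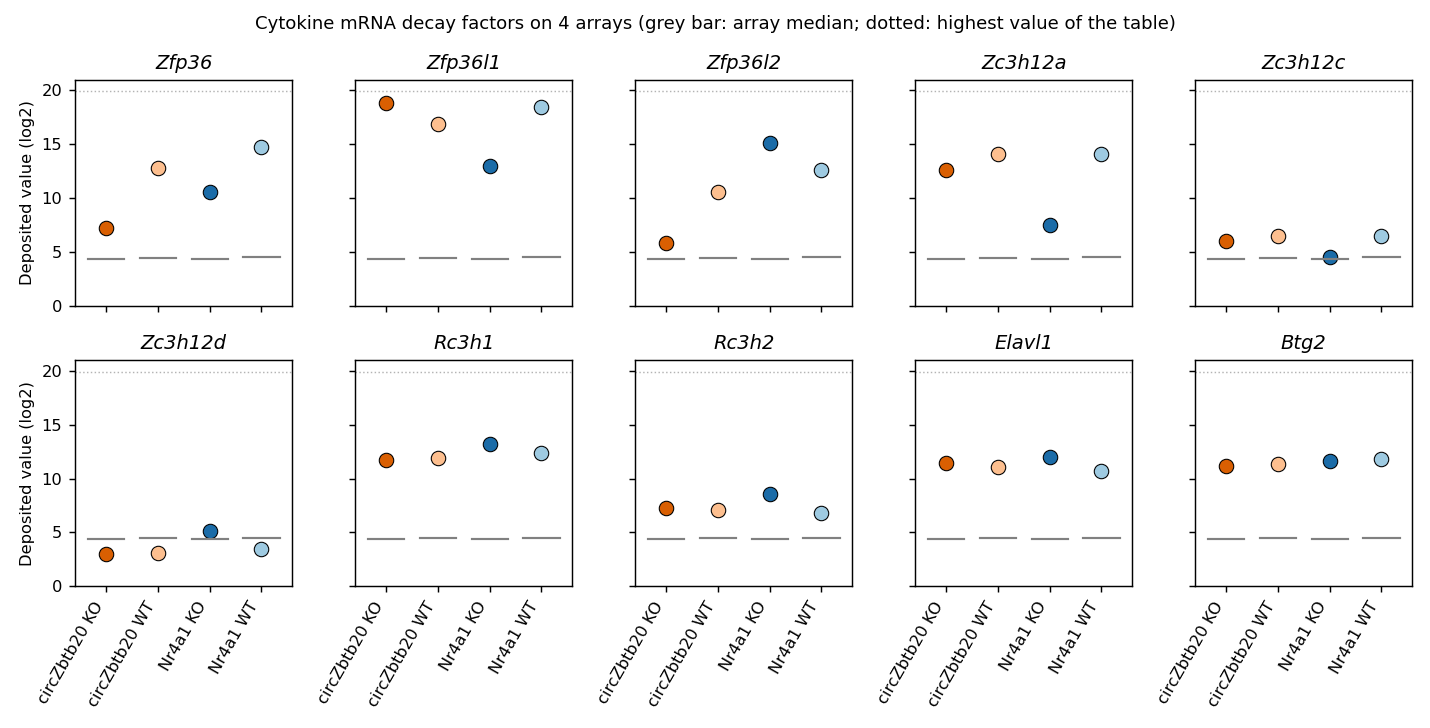
Deposited log2 values of the 10 members on the 4 arrays, 1 point per array, with each array's median as a grey bar and the highest value of the table, 19.93, as a dotted line. Zfp36, Zfp36l1, Zfp36l2 and Zc3h12a spread over 5.85 to 9.32 log2 units across the arrays, and Btg2 over 0.61.

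The tristetraprolin family showed wide differences, and its members did not move together. Zfp36 stood at 7.22 in the circZbtb20 knockout, against 12.78 in the paired wild type, and at 10.57 in the Nr4a1 knockout, against 14.72 in the paired wild type. It was thus lower in each knockout than in either wild type. In the circZbtb20 knockout the difference was -5.56, 47.2-fold in size, and with the other wild type as base -7.5. For the Nr4a1 knockout it was -4.15, 17.8-fold in size, and with the other wild type -2.21. In the circZbtb20 comparison only 0.43% of the genes past the filter had a lower difference than Zfp36. In the Nr4a1 comparison that share was 3.68%.

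Zfp36l2 differed in opposite directions in the knockouts. It stood at 5.84 in the circZbtb20 knockout, against 10.58 in the paired wild type, and at 15.16 in the Nr4a1 knockout, against 12.60 in the paired wild type. The Nr4a1 knockout held the highest value of the 4 arrays and the circZbtb20 knockout the lowest. Its differences were -4.74 and, against the other wild type, -6.76 in the circZbtb20 knockout, and 2.56 and 4.58 in the Nr4a1 knockout. In mice Zfp36l1 and Zfp36l2 act together in the development of thymocytes, and the T cell and thymocyte markers, Cd8b1 and Themis among them, were higher on the same Nr4a1 knockout array by a median of 9.37. How far the cell content of that array bears on Zfp36l2 was not tested.

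Zfp36l1, the other relative, differed from its paired wild types in the direction opposite to Zfp36l2. It stood at 18.88 in the circZbtb20 knockout, against 16.91 in the paired wild type, and at 13.03 in the Nr4a1 knockout, against 18.45 in the paired wild type. The circZbtb20 knockout was the highest array and the Nr4a1 knockout the lowest. The difference in the circZbtb20 knockout was 1.97 but only 0.43 against the other wild type, which ends that call. For the Nr4a1 knockout it was -5.42, and -3.88 against the other wild type. The mouse paralog Zfp36l3, which is not a member, was at 3.68 or lower on all 4 arrays, under each array's median.

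The wild types themselves differed on this family. Zfp36 was higher by 1.94 in the Nr4a1 wild type than in the circZbtb20 wild type, Zfp36l1 by 1.54 and Zfp36l2 by 2.02. They were the only 3 members called between the wild types, where the same rule called 15.2% of all genes in either direction and 8.48% as higher. The other 7 members lay between -0.34 and 0.43. Differences in this family of about 2 log2 units therefore lie within what separated the wild types. The differences of Zfp36 and Zfp36l2 in each knockout, and of Zfp36l1 in the Nr4a1 knockout, were larger than that against either wild type. The narrowest margin was that of Zfp36 in the Nr4a1 knockout, -2.21 beside 1.94.

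Zc3h12a, which encodes Regnase-1, had the largest difference of the members in the Nr4a1 knockout. It was at 7.46 in the Nr4a1 knockout, against 14.12 in the paired wild type, and at 12.63 in the circZbtb20 knockout, against 14.09 in the paired wild type. The wild types lay 0.03 apart, and the Nr4a1 knockout was far under the other arrays. The difference was -6.66 in the Nr4a1 knockout, 101-fold in size, and -6.63 against the other wild type, and only 1.36% of genes past the filter had a lower one. In the circZbtb20 knockout it was -1.46, and -1.49 against the other wild type.

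The related genes Zc3h12c and Zc3h12d differed by less than 2 log2 units. Zc3h12c, which encodes Regnase-3, was at 4.55 in the Nr4a1 knockout, against 6.45 in the paired wild type, and at 6.03 in the circZbtb20 knockout, against 6.52 in the paired wild type. Its difference of -1.90 in the Nr4a1 knockout passed the size rule, and -0.49 in the circZbtb20 knockout did not. Zc3h12d, which encodes Regnase-4, was at 5.10 in the Nr4a1 knockout, against 3.47 in the paired wild type, and at 3.03 in the circZbtb20 knockout, against 3.12 in the paired wild type. It was above its array's median in the Nr4a1 knockout alone, with a difference of 1.63, and it did not pass the filter in the circZbtb20 comparison. In the wider nuclease family, Khnyn, a KH and NYN domain protein, differed by -2.16 in the circZbtb20 knockout and by -2.25 in the Nr4a1 knockout. Zc3h12b, N4bp1 and Nynrin were not called against both wild types in either comparison.

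The Roquin genes also differed by less than 2 log2 units. Rc3h1, the gene of Roquin-1, stood at 11.75 in the circZbtb20 knockout, against 11.93 in the paired wild type, and at 13.25 in the Nr4a1 knockout, against 12.33 in the paired wild type. Rc3h2, the gene of Roquin-2, stood at 7.31 in the circZbtb20 knockout, against 7.07 in the paired wild type, and at 8.55 in the Nr4a1 knockout, against 6.77 in the paired wild type. Each was highest in the Nr4a1 knockout. Rc3h2 was called there against both wild types, at 1.78 and 1.48. Rc3h1 lay at the size rule, at 0.92 against the paired wild type and 1.32 against the other, and was not called against both.

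Btg2 and Elavl1 had the narrowest ranges of the 10 members over the arrays, at 0.61 and 1.33. Elavl1 stood at 11.49 in the circZbtb20 knockout, against 11.04 in the paired wild type, and at 12.03 in the Nr4a1 knockout, against 10.70 in the paired wild type. Its difference of 1.33 in the Nr4a1 knockout was called, but at 0.99 against the other wild type it was not. Its difference of 0.45 in the circZbtb20 knockout was under the size rule, and it became -0.13 under quantile normalization. Btg2, an antiproliferative gene, stood at 11.20 in the circZbtb20 knockout, against 11.38 in the paired wild type, and at 11.60 in the Nr4a1 knockout, against 11.81 in the paired wild type. Its difference was -0.18 in the circZbtb20 knockout and -0.21 in the Nr4a1 knockout, and no comparison called it. Of its 4 measured relatives, 2 were lower against both wild types in the circZbtb20 knockout, Btg1 by a difference of -3.11 and Tob2 of -3.55. Tob2 alone of the 4 was lower in the Nr4a1 knockout, at -3.68, and Btg1 was at -0.77. Btg4 and Tob1 were called in neither.

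**Figure D2:**
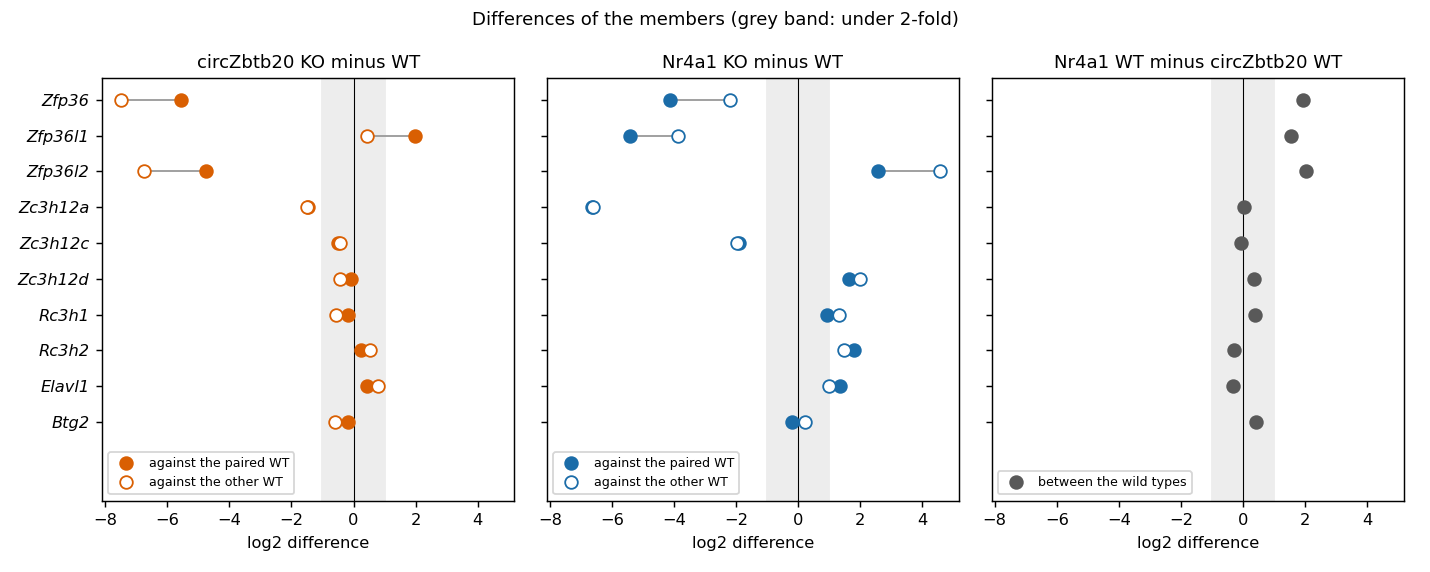
Log2 differences of the 10 members against the paired wild type (filled) and the other wild type (open), with differences under 2-fold shaded. The wild types lie within 0.43 of each other for all members but the 3 of the tristetraprolin family.

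Counted over the list, 4 of the 10 members were called in the circZbtb20 knockout against its wild type, 1 higher and 3 lower, and 9 passed the filter on low values. The rule called 46.7% of the 11122 genes that passed the filter in that comparison, 27.3% as higher and 19.4% as lower. Against both wild types 3 members were called, Zfp36, Zfp36l2 and Zc3h12a, all lower. There the rule called 36.7% of the 10685 genes that passed the filter against both, 22.3% as higher and 14.4% as lower. The share of members called was thus not above that of all genes, while all 3 calls were on the less frequent, lower side. The median difference of the members was -0.18, beside 0.17 over all genes past the filter.

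In the Nr4a1 knockout 8 of the 10 members were called against its wild type, 4 higher and 4 lower, and all 10 passed the filter. The rule called 52.7% of the 11197 genes that passed the filter there, 31.9% as higher and 20.8% as lower. Against both wild types 7 were called. Zfp36l2, Zc3h12d and Rc3h2 were higher, and Zfp36, Zfp36l1, Zc3h12a and Zc3h12c were lower. Of the 10730 genes that passed the filter against both, the rule called 44% in either direction, 28.4% as higher and 15.7% as lower. The median difference of the members was 0.36, beside 0.29 over all genes.

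**Figure D3:**
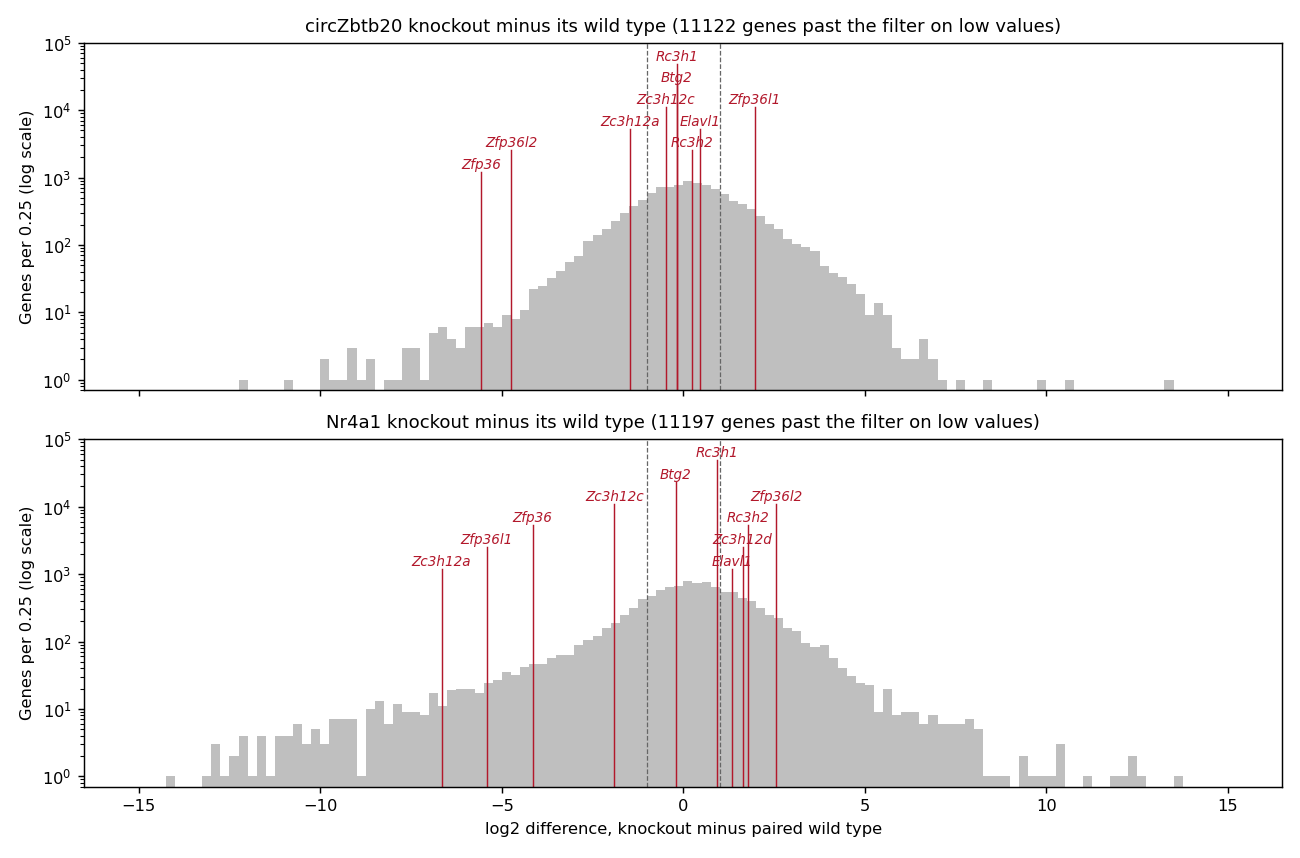
Log2 differences of the genes that passed the filter, knockout minus paired wild type, as counts per bin on a log axis, with the members marked by red lines. Zfp36 and Zfp36l2 lie in the low tail in the circZbtb20 knockout, and Zc3h12a, Zfp36l1 and Zfp36 in the Nr4a1 knockout.

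A fit across genes was possible only by treating the wild types as 1 group, which leaves 1 residual degree of freedom and assumes that each lone knockout array varies as the wild types do. In limma, with Benjamini-Hochberg adjustment over 12232 genes past the filter, Zfp36 differed by -6.53 ± 0.87 (SE) in the circZbtb20 knockout, adjusted p = 0.023, and Zfp36l2 by -5.75 ± 0.90 (SE), adjusted p = 0.0286. The adjusted p of Zc3h12a there was 0.0823. In the Nr4a1 knockout limma gave Zc3h12a -6.65 ± 0.42 (SE), adjusted p = 0.00272, and Zfp36l1 -4.65 ± 0.74 (SE), adjusted p = 0.0162. Zfp36l2 and Zc3h12c also had limma adjusted p-values under the threshold of 0.05 there, at 0.0484 and 0.0328, while Zfp36 was at 0.0595. Zc3h12d had an adjusted p of 0.0445 in limma, but it passed the filter only through the array where it was high, and without the filter its adjusted p was 0.0606. These limma calls depend on the filter. Over all 19504 genes Zc3h12a, Zfp36l1 and Zc3h12c were still called by limma in the Nr4a1 knockout. In the circZbtb20 knockout limma then called no gene at all, so the lack of called members there says nothing about the members.

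Promoter sequence is shown for the 3 members with RefSeq promoters that spread most over the arrays, and for Btg2, which spread least. No window is shown for Zfp36l2. The windows hold the 250 bases before the start site in GRCm38.p6, written 5′ to 3′ on the gene's strand. All 4 genes lie on the minus strand, Zfp36 at chr7:28379229-28379478, Zfp36l1 at chr12:80113014-80113263, Zc3h12a at chr4:125127882-125128131 and Btg2 at chr1:134079156-134079405. Capitals mark matches, on either strand, to any of 6 motifs. The full CREB/ATF site was searched as TGACGTCA and the EGR site as GCGGGGGCG. The NBRE, which NR4A receptors bind as monomers, was searched as AAAGGTCA. The AP-1 site was searched by the loose pattern TGANTCA, with any base at N. The KLF-type box was searched as CCACGCCC, and the TATA box by the letters TATAAA.
Zfp36: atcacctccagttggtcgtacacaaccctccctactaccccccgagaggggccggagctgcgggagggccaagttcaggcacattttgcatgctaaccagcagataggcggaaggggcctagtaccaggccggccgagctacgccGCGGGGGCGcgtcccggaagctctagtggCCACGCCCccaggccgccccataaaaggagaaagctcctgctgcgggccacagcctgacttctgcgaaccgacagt
Zfp36l1: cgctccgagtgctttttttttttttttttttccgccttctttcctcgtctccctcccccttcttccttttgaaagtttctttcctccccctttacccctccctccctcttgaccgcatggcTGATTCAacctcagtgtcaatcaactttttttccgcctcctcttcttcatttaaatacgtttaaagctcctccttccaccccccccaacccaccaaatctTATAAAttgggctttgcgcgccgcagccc
Zc3h12a: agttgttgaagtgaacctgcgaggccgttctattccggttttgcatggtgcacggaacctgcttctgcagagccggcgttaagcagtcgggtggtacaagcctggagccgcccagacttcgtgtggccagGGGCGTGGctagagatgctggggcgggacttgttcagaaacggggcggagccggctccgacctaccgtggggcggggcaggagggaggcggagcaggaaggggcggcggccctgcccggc
Btg2: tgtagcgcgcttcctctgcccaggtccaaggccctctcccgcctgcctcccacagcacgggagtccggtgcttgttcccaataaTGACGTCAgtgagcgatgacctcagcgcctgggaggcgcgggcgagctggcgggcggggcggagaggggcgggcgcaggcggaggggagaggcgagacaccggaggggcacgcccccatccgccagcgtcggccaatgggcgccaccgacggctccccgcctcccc

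The Zfp36 window held an EGR match that begins 105 bases before the start site and a KLF-type box that begins 76 bases before it. Of all 32851 promoter windows of this length, 2.57% held the EGR letters and 4.79% the KLF-type box. Zfp36l1 had a match to the loose AP-1 pattern, found in 6.75% of windows, and a TATA box, found in 12.4%. The match to the loose pattern reads TGATTCA, with T at the open base, so it is not shown to be an AP-1 site. Zc3h12a had a KLF-type box, and Btg2 a full CREB/ATF site, found in 1.55% of windows. The NBRE was in none of the 10 windows of the 9 members with an entry, and in 1.34% of all windows. The printed matches do not overlap each other. A match describes the letters only.

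The genes whose profiles over the 4 arrays were most like those of 3 members were found by distance, after each gene was set to a mean of 0. Around Zfp36 these were Mlxip, Apoe, Spi1, Ccr8 and Il12rb2, at root mean square distances of 0.34 to 0.76 log2 units. Spi1, which encodes the myeloid factor PU.1, stood at 6.74 in the circZbtb20 knockout, against 11.95 in the paired wild type, and at 11.04 in the Nr4a1 knockout, against 14.95 in the paired wild type. Around Zc3h12a they were Atf3, Ctla4, Gvin1, Cpd and Sdc1, at 0.20 to 0.32. Atf3, a stress-induced transcription factor, was at 6.57 in the Nr4a1 knockout, against 13.79 in the paired wild type. Around Btg2 they were Mab21l3, Ccdc88a, Rgs14, Teddm1a and Tmem230, at 0.03 to 0.05. That these genes differed little between the arrays follows from the way they were chosen. Their values lay between 3.96 and 6.45, far under those of Btg2, at 11.20 to 11.81. Ccr8 is in the ILC2 marker list, which differed by a median of -5.80 in the circZbtb20 knockout and of -4.93 in the Nr4a1 knockout. Spi1 and Apoe are typical of macrophages, and the macrophage and dendritic cell markers differed by medians of -0.65 and -1.16 in the same comparisons. The part of either cell type in the Zfp36 values was not tested.

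The machinery that the members recruit was described with lists of companion genes, given here without the members. Beside all counts below stand the shares of all genes called against both wild types, 22.3% higher and 14.4% lower in the circZbtb20 knockout, and 28.4% higher and 15.7% lower in the Nr4a1 knockout. The list labelled AU-rich element binding proteins also holds RNA-binding proteins not chiefly known for that element, among them Pcbp2, Ybx1 and Caprin1. Of its 15 genes, 14 of which passed the filter, 6 were lower and 1 higher against both wild types in the circZbtb20 knockout. The median difference of the list was -0.75 beside 0.17 for all genes. In the Nr4a1 knockout 10 were higher and 0 lower, and the median difference was 1.58 beside 0.29. Caprin1, a stress granule protein, stood at 8.03 in the circZbtb20 knockout, against 13.05 in the paired wild type, and at 16.64 in the Nr4a1 knockout, against 13.14 in the paired wild type. Fubp1, a single-strand nucleic acid binding protein, differed by -2.25 in the circZbtb20 knockout and higher by 4.46 in the Nr4a1 knockout. Pcbp2 differed by -2.82 and Ybx1 by -2.46 in the circZbtb20 knockout. Tia1, a translational repressor, was higher by 4.59 in the Nr4a1 knockout and Hnrnpab by 3.81.

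Among deadenylases and downstream decay enzymes in the Nr4a1 knockout, the lists differed in how many members were called. Of 11 CCR4-NOT genes 5 were higher and 1 lower against both wild types, with a median of 1.51, and Cnot8, a catalytic subunit, was higher by 3.44 and Cnot9 by 2.90. Of 8 genes of PAN2-PAN3, PARN and poly(A)-binding proteins 5 were higher and 0 lower (median difference 1.76). Of 19 decapping and 5′ decay genes 13 were higher and 0 lower (median difference 2.09). Xrn1, the cytoplasmic 5′ exonuclease, was higher by 4.08, and the decapping activator Edc3 by 2.73. Lsm14b was at 8.60, against 3.70 in the paired wild type, which is under that array's median. Of 15 exosome and Ski genes, 13 of which passed the filter, 6 were higher and 0 lower (median difference 1.37), and Exosc10 was higher by 2.92. Of 7 nonsense-mediated decay genes none was called against both wild types, with a median of 0.95. The T cell markers were higher on the same array by a median of 9.37.

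In the circZbtb20 knockout, where the rule called 22.3% of all genes as higher and 14.4% as lower, the same lists had calls in each direction. Of the 11 CCR4-NOT genes 4 were higher and 1 lower against both wild types, and the lower one was Cnot6l, a catalytic subunit, at -4.04. Cnot9 was higher by 1.92 and Cnot1, the scaffold, by 1.75. Of the 8 PAN2-PAN3, PARN and poly(A)-binding genes 2 were higher and 2 lower, with the deadenylase gene Pan2 higher by 4.34 and its partner Pan3 differing by -1.62. Of the 19 decapping and 5′ decay genes, 17 of which passed the filter, 6 were higher and 1 lower, with Lsm6 higher by 3.76. Of the 15 exosome and Ski genes, 13 of which passed the filter, 2 were higher and 2 lower, with Wdr61, a Ski complex subunit, higher by 3.11. Of the 7 nonsense-mediated decay genes 1 was higher and 1 lower. The medians of these 5 lists lay between -0.02 and 0.85, beside 0.17 for all genes.

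**Figure D4:**
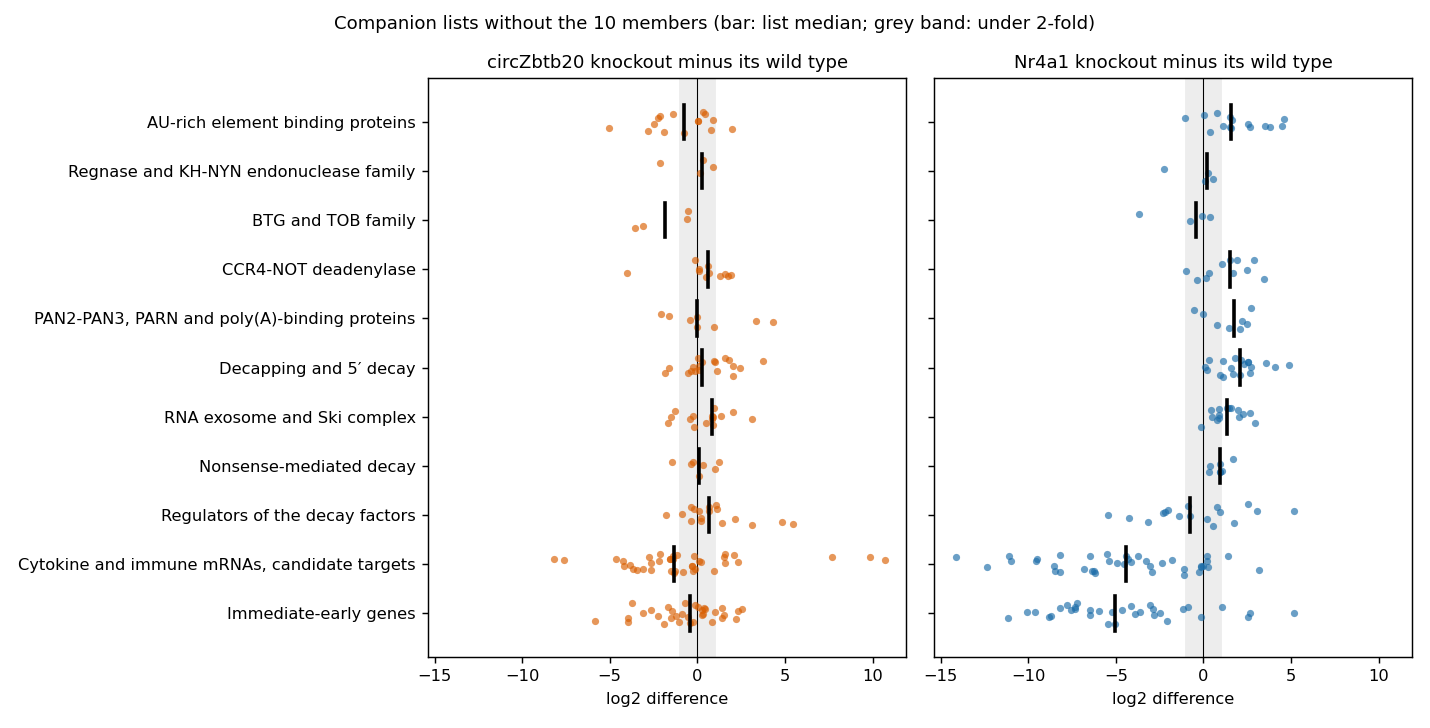
Log2 differences, knockout minus paired wild type, of the companion lists without the members, 1 point per gene, with the list median as a bar and differences under 2-fold shaded. In the Nr4a1 knockout the medians of the CCR4-NOT, decapping and exosome lists lie above 0, at 1.37 to 2.09, and those of the candidate target and immediate-early lists under it, at -4.43 and -5.05.

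Genes that regulate the decay factors included the p38 pathway. Mapkapk2 encodes MK2, which phosphorylates tristetraprolin and weakens its action. It stood at 15.54 in the circZbtb20 knockout, against 10.07 in the paired wild type, and at 5.11 in the Nr4a1 knockout, against 9.39 in the paired wild type. The circZbtb20 knockout was far above the other arrays and the Nr4a1 knockout far under them. Mapkapk3, the related kinase, was higher by 4.85 in the circZbtb20 knockout and differed by -2.21 in the Nr4a1 knockout. Mapk14, the main p38 kinase, was higher by 3.10 in the circZbtb20 knockout, and Mapk11, another p38 kinase, was at 9.18 in the Nr4a1 knockout, against 4.02 in the paired wild type, a value under that array's median. Dusp1, a phosphatase that acts on p38, stood at 19.79 in the circZbtb20 knockout, against 18.36 in the paired wild type, and at 13.44 in the Nr4a1 knockout, against 18.91 in the paired wild type. Its difference of 1.43 in the circZbtb20 knockout was 0.88 against the other wild type. Of 17 such regulators 5 were higher and 1 lower against both wild types in the circZbtb20 knockout, and 4 were higher and 6 lower in the Nr4a1 knockout. Over all genes the rule called 22.3% as higher for circZbtb20 and 28.4% for Nr4a1, and 14.4% and 15.7% as lower, so the counts of higher regulators lie near them. Their median difference was 0.65 in the circZbtb20 knockout and -0.79 in the Nr4a1 knockout.

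Other regulators act on Regnase-1 and the Roquins. Malt1, the protease that cleaves both in stimulated lymphocytes, was at 6.20 in the Nr4a1 knockout, against 8.22 in the paired wild type, and at 8.55 in the circZbtb20 knockout, against 7.43 in the paired wild type. It was called against both wild types in the Nr4a1 knockout alone, at -2.02 and -1.23. Arid5a, which protects some cytokine mRNAs from Regnase-1, lay between -0.86 and 0.65 and was not called. Traf3ip2, an adaptor of the IL-17 receptor, differed by -3.15 in the Nr4a1 knockout. Ikbkb, a kinase of the NF-kB pathway that also acts on Regnase-1, was higher by 2.16 in the circZbtb20 knockout.

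The mRNAs that such factors bind were followed through a list of 39 measured cytokine and immune genes, candidate targets by their known elements. Of these, 35 passed the filter in each knockout comparison. In the circZbtb20 knockout 6 were higher and 21 lower against both wild types, where the rule called 22.3% of all genes as higher and 14.4% as lower. The median difference was -1.33 beside 0.17 for all genes. Il17a stood at 15.79 in the circZbtb20 knockout, against 5.10 in the paired wild type. Ifng, the type 1 cytokine, stood at 18.25, against 8.37, and Il17f was higher by 7.71. Il6, a target of Regnase-1 and tristetraprolin, stood at 9.07 in the circZbtb20 knockout, against 12.53 in the paired wild type. Il5 was at 3.58, under that array's median, against 11.74. Csf2, the gene of GM-CSF, differed by -1.33 and Icos, a costimulatory receptor known as a Roquin and Regnase-1 target, by -1.30. Tnf, the best known tristetraprolin target, stood at 9.08, against 6.98, but with the other wild type as base it differed by -0.16. Nfkbiz, another Regnase-1 target, differed by 1.57, and by 0.18 from the other wild type. The value of Il22 was 18.34 in the circZbtb20 knockout, against the highest value of the table in the other arrays, so its difference of -1.59 is a bound. Lower Zfp36, Zfp36l2 and Zc3h12a thus stood beside candidate targets in both directions on this array. Of the 39, Il4, Il5 and Il13 also stand in the ILC2 marker list, which differed there by a median of -5.80, and Il17a, Il17f and Il22 in the ILC3 marker list.

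In the Nr4a1 knockout 29 of the 39 candidate targets were lower against both wild types and 1, Tnfrsf4, was higher by 3.18, where the rule called 15.7% of all genes as lower and 28.4% as higher. The median difference was -4.43 beside 0.29 for all genes. Ptgs2, the inducible cyclooxygenase, was at 2.73 in the Nr4a1 knockout, against 16.85 in the paired wild type. Csf2 stood at 3.71, against 16.05, and Il6 at 3.18, against 14.26. The 3 knockout values are under that array's median. Il1b differed by -11.01, Nfkbiz by -8.54, Ifng by -5.41, Icos by -4.43 and Tnf by -3.27. With the other wild type as base, Tnf differed by -1.01. Il2 lay between 2.76 and 3.04 on all 4 arrays, under every array median, and Il17a differed by -0.26. Most candidate targets were thus lower here beside 4 lower members (Zfp36, Zfp36l1, Zc3h12a and Zc3h12c) and 3 higher ones (Zfp36l2, Zc3h12d and Rc3h2), on the array where ILC3 markers differed by a median of -3.73 and T cell markers by 9.37. Between the wild types 13 of the 39, of which 34 passed the filter, were higher and 3 lower in the Nr4a1 wild type. The rule called 8.48% of all genes as higher and 6.77% as lower there. Tnf was higher by 2.26 in the Nr4a1 wild type, Ifng by 1.79 and Il6 by 1.73.

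**Figure D5:**
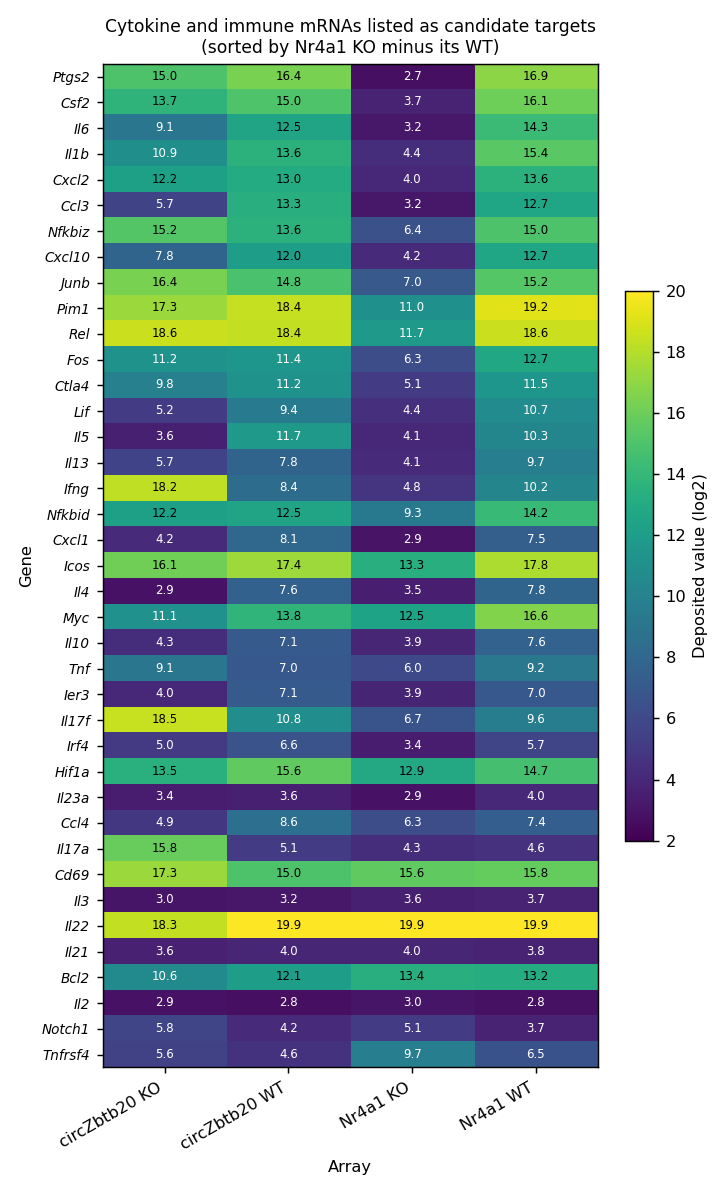
Deposited log2 values of the 39 measured candidate target mRNAs on the 4 arrays, in colour and as printed numbers, sorted by the difference in the Nr4a1 knockout. The Nr4a1 knockout is low for most of them, and Il17a, Il17f and Ifng stand out as high in the circZbtb20 knockout.

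Zfp36, Zc3h12a and Btg2 are themselves known to respond quickly to stimulation, so 33 other immediate-early genes were set beside them. Cd69, Fos, Ier3, Junb and Myc stand in both this list and the candidate targets. In the Nr4a1 knockout 26 were lower and 3 higher against both wild types, beside 15.7% and 28.4% of all genes, and the median difference was -5.05. Nr4a1, the gene targeted in that knockout, is counted among the 26 lower genes and in that median. Fosb differed by -11.18, Rgs1 by -10.10, Gadd45b by -9.60 and Fosl2 by -8.80. The differences of Zc3h12a, -6.66, and Zfp36, -4.15, lie within the spread of that list, and Cd69, Egr1, Dusp2, Mcl1 and Egr2 alone had a higher difference than Btg2, at -0.21. In the circZbtb20 knockout 13 were lower and 3 higher on the same rule, beside 14.4% and 22.3% of all genes. Their median difference was -0.44, and -1.49 with the other wild type as base. Egr1 differed by -5.86 there, Mcl1 by -3.94, and Nr4a1 by -3.95 and Nr4a3 by -3.73 as bounds, since their wild type stood at the highest value. Against the other wild type, which was at 18.11 for Nr4a1, Nr4a1 differed by -2.13. The difference of Zfp36 in the circZbtb20 knockout, -5.56, was close to that of Egr1 with the paired wild type as base only. With the other wild type as base Zfp36 differed by -7.5 and Egr1 by -5.47. In the Nr4a1 knockout Egr1 differed by 1.03 from the paired wild type, beside -4.15 for Zfp36.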

How the data were processed

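Gene expression was measured on 4 Affymetrix arrays, 1 per genotype. The authors deposited log2 values made with Affymetrix Power Tools and RMA, per the submitters' processing notes, without versions or settings. RMA is meant to give the arrays a like overall distribution, so a change of total RNA per cell cannot be seen. The deposited columns were not fully alike, with 95th percentiles between 11.38 and 11.89. The highest value, shared by several rows, was treated as a ceiling. The design text names another Affymetrix mouse array than the platform of the probe table used for names. Of 22205 rows, 19571 had 1 symbol and 2634 none, and the row with the highest mean was kept per gene. Groups follow the titles. The members and lists were chosen with earlier results of these data known. Named are all members, up to 4 called genes per list, and fixed genes such as Tnf and Malt1. Genes most like Zfp36, Zc3h12a and Btg2 were limited to 5 each. Kit, Tox, Ltb, Cd8b1, Themis, Btg4, Tob1, Zfp36l3, Tnfrsf4 and the immediate-early genes set beside Btg2 were named after their values were seen. The promoter motifs were chosen after the sequences were seen. With 1 array per group no test was run for the main results. The p-values are from limma 3.58.1 in R 4.3.3. The code was also run on simulated arrays with the same noise in every gene, which does not show that p-values from these arrays hold. RefSeq promoters came from GRCm38.p6. Alternatives were the wild type used, normalization, filter, size rule, row rule, ceiling and limma.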

Additional observations from a re-analysis of the deposited data

How the results depend on the processing

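No paired analysis was possible because each genotype has 1 array. With a size rule of 2 on the log2 scale, 2 members were called in the circZbtb20 knockout and 4 in the Nr4a1 knockout. For the latter it was also 4 against both wild types, and 1 was called between the wild types. The share of all genes called by that stricter rule was not computed, so these counts cannot be read against one. With limma and both wild types as 1 group, 2 and 5 members were called over genes past the filter. With limma and no filter, chosen after seeing the data, 0 and 3 were called, and 3 and 9 had an unadjusted p under 0.05. That step adds low genes and lowers the prior degrees of freedom to 2.54, against 3.83 with the filter. The other alternatives (the other wild type, the mean of both, quantile normalization, median centring, no filter, a filter at the 75th percentile, the mean over rows, values at the ceiling left out) left every count of called members within 1.5 times its value. No called difference of a member changed sign when recalculated. Uncalled ones did, such as that of Btg2 in the Nr4a1 knockout, at -0.21, and at 0.22 against the other wild type. Median centring shifts all genes of an array alike, and the mean over rows repeats the main values of the members. Of 100 recalculated differences, called or not, 10 moved by more than 0.79 log2 units, the SD of the wild-type difference. All 10 belong to the tristetraprolin family with another wild type as the base. Under median centring 9 members were called against both wild types in the Nr4a1 knockout, Rc3h1 and Elavl1 included. Members had 1 row each, so the rule for several rows could not change them. Signal near the array medians limits Zc3h12c and Zc3h12d.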
